A study of Mus musculus with 12 samples.

Results

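Pou5f1, Nanog, Sox2, Esrrb, Klf2, Klf4, Klf5, Tbx3, Tfcp2l1 and Zfp42 are the genes of the core and naive pluripotency factors of mouse embryonic stem (ES) cells. They were chosen by name: every probe set that the array's annotation assigns to one of these 10 symbols was taken, whatever its signal, which gave 21 of the 45101 probe sets on the array. Earlier results of these data were known when the 10 genes were chosen. Each of the 21 was annotated to 1 gene only. The RNA came from KH2 cells, a mouse ES cell line, and was hybridised to 12 Affymetrix arrays, 3 per group, named A, B and C. The 4 groups were cells without retinoic acid (RA), titled WT in the labels, and cells kept for 2, 4 or 6 h in a differentiation medium of DMEM, serum and NAA with 0.3 µM RA. The cells of all groups were grown on feeder cells, then trypsinized and replated on gelatin for 30 min before 200 ng of RNA was labelled. The labels do not say that the untreated cells received the differentiation medium, so in each comparison against no RA the effects of RA and of the medium cannot be told apart. The protocols differ on whether attached or unattached cells were collected after replating. Nor do they say that A, B and C were separate cultures, and the spread on which every p-value rests may therefore be technical.

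Mouse ES cells remain undifferentiated through a network of transcription factors that bind one another's genes. The POU factor encoded by Pou5f1 (Oct4) and the HMG-box factor Sox2 bind DNA side by side at a paired octamer and SOX element, and with the homeodomain factor Nanog they form the core of the network. Around this core stand factors that mark the naive state of the early embryo: the orphan nuclear receptor Esrrb, the Krüppel-like factors Klf2, Klf4 and Klf5, the T-box factor Tbx3, the grainyhead-family factor Tfcp2l1 and the zinc-finger protein Zfp42 (Rex1). Signals from leukemia inhibitory factor (LIF) feed Klf4 and Tfcp2l1 through STAT3. The naive factors are lost when the cells pass to the primed or a differentiated state, whereas Pou5f1 is also expressed in primed cells. RA, which acts through nuclear RA receptors, is a classical inducer of ES cell differentiation.

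The promoters of 6 of these genes are shown, because they differ in matches to short elements that factors of these families can bind. These 6 also include the 3 core genes and the 3 genes with the largest falls at 6 h. RefSeq windows (build GRCm38.p6) of 250 bases, ending at the base before the upstream-most listed start, were matched for 8 of the 10 genes. In the lines below, read 5′ to 3′ in the direction of the gene, capitals mark a match, on either strand, to the octamer core TTTGCAT, the SOX element ACAATG, the GC box GGGCGG, the KLF element GGGNGTGG or the nuclear receptor half-site AGGTCA. The windows are Pou5f1, chr17:35505782-35506031, plus strand; Nanog, chr6:122707239-122707488, plus strand; Sox2, chr3:34649745-34649994, plus strand; Klf4, chr4:55532476-55532725, minus strand; Tfcp2l1, chr1:118627695-118627944, plus strand, whose last bases lie inside the annotated gene; and Zfp42, chr8:43307010-43307259, minus strand.
Pou5f1: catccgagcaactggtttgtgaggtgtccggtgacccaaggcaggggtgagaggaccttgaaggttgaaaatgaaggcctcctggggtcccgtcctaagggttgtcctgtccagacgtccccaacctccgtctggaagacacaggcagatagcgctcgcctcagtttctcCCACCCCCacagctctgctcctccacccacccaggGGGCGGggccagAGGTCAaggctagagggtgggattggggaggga
Nanog: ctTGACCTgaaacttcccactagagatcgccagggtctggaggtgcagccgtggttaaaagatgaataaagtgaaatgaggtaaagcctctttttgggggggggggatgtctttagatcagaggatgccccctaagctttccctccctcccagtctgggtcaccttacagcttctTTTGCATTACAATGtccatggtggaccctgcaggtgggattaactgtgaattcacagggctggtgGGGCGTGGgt
Sox2: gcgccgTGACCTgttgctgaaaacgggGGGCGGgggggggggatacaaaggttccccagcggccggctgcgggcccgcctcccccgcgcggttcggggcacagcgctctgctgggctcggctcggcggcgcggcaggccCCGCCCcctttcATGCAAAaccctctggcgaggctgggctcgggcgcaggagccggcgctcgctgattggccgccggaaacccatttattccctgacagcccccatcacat
Klf4: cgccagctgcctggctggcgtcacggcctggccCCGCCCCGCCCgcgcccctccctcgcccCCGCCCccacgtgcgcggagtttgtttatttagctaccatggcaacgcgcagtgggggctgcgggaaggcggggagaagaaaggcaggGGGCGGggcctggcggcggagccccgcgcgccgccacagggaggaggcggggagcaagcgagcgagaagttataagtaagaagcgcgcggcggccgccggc
Tfcp2l1: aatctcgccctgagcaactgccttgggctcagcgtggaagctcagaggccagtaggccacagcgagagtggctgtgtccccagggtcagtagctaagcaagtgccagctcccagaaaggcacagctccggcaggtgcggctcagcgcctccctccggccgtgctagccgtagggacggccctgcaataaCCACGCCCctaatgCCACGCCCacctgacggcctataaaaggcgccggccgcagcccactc
Zfp42: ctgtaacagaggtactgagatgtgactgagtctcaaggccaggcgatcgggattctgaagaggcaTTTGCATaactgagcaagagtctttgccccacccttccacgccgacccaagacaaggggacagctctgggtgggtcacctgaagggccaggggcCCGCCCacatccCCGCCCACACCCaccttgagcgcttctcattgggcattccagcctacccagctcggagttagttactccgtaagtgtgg

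The octamer core was found in 3 of the 8 windows, those of Nanog, Sox2 and Zfp42, and in 4.07% of the windows of all 27025 genes. In Nanog it spans bases 75 to 69 before the start and is followed, after 1 base, by the SOX element at bases 67 to 62. That combination occurred in 1 window of the whole table, that of Nanog, after whose known element it was spelled. The SOX element alone was in 10.9% of all windows. The KLF element was in 4 of the 8 windows (Pou5f1, Nanog, Tfcp2l1 and Zfp42) and in 15.9% of all windows, and Tfcp2l1 holds it 2 times, at bases 61 to 54 and 47 to 40. GC boxes were in 5 of the 8 windows, with 4 matches in Klf4 alone, against 33.0% of all windows. The half-site AGGTCA, the unit that RA receptors and related nuclear receptors bind, was in the windows of Pou5f1, Nanog and Sox2 and in 13.8% of all windows. With one more A in front, the form that Esrrb is known to bind, it was in 0 of the 8 windows and in 4.04% of all windows. A match describes these letters only and is not a measured binding site.

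The deposited values are log2 signals per probe set, with array medians between 6.05 and 6.10. A gene was read on its brightest probe set, the one with the highest mean over the 12 arrays, and was called changed at a Benjamini-Hochberg adjusted p under 0.05 over all 34945 probe sets named for 1 gene (limma fit of the 4 group means). A difference is one mean log2 signal minus another, given with the standard error (SE) from that fit and n = 3 arrays per group. The cells had the profile of ES cells: all 12 ES cell markers, 4 of which are among the 10 genes, were above the median signal on every array, with means per array of 12.46 to 12.86. Of 10 measured RA-response genes, 8 were called higher at 2 h and all 10 at 4 and 6 h. Cyp26a1, the enzyme that degrades RA, rose by 6.11 ± 0.086 SE at 2 h (adjusted p = 1.37e-12) from an untreated mean under the array median.

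Markers of feeder fibroblasts had signal in every group: 21 to 23 of 25 lay above the median on all arrays of a group, though some of them are made by other cells too. Their mean was 8.56, 8.89 and 8.22 on untreated arrays A, B and C, and 8.59 to 8.86 on the 9 RA arrays. Untreated C was thus lowest and untreated B highest, and C also had the lowest mean correlation with the arrays of its group, 0.9931 against 0.9950 to 0.9979 for the others. Against no RA, 0, 3 and 3 of the 25 markers were called at 2, 4 and 6 h, where 2.22%, 25% and 27.6% of all genes were. Without untreated B, 7, 12 and 7 were called higher, with 2.56%, 19.3% and 21.1% of all probe sets then called in either direction. Means of 11 primitive endoderm markers were 7.67 to 8.10 and of 11 trophoblast markers 7.13 to 7.36 over the arrays. The part of any of these cells in the results below was not tested.

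On their brightest probe sets, the genes of the network were at 6 h called lower, called higher or not called. Sox2, Esrrb, Klf2, Klf4, Tfcp2l1 and Zfp42 were lower than in untreated cells, Tbx3 was higher, and Pou5f1, Nanog and Klf5 were not called. At 4 h the same genes were called in the same directions. Tbx3 was called on no other of its probe sets, and its call at 6 h was lost when certain single arrays were left out. Klf5 was called lower when untreated C was left out. At 2 h only Klf4 among the 10 was called lower and only Nanog higher. The largest fall was that of Klf4, 2.347-fold at 6 h, followed by Tfcp2l1 at 1.805-fold. In RNA of all the cells collected together after replating, fewer cells of a type and less RNA per cell cannot be told apart.

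In numbers, 2 of the 10 genes were called at 2 h (1 higher, 1 lower), against 2.22% of all 18193 genes, of which 1.34% higher and 0.885% lower. With 1 array left out the share of all probe sets called at 2 h, 2.02%, ranged from 0.893% (without RA 2 h replicate A) to 3.56% (without no RA replicate C), and 2 or 3 of the 10 genes were called. At 4 h, 7 of 10 were called (1 higher, 6 lower), against 25% of all genes, of which 11.8% higher and 13.2% lower. At 6 h the count was again 7 of 10 (1 higher, 6 lower), against 27.6% of all genes, 13.9% higher and 13.7% lower. The median difference of the 10 genes was -0.02, -0.35 and -0.39 at 2, 4 and 6 h, whereas that of all genes was 0.0043, 0.0023 and -0.01. A change of any kind over the 4 groups was called by the F test for 8 of 10 genes, all but Pou5f1 and Klf5, against 33.6% of all genes. The 3 comparisons against no RA share the untreated arrays and are not independent of one another.

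**Figure D1:**
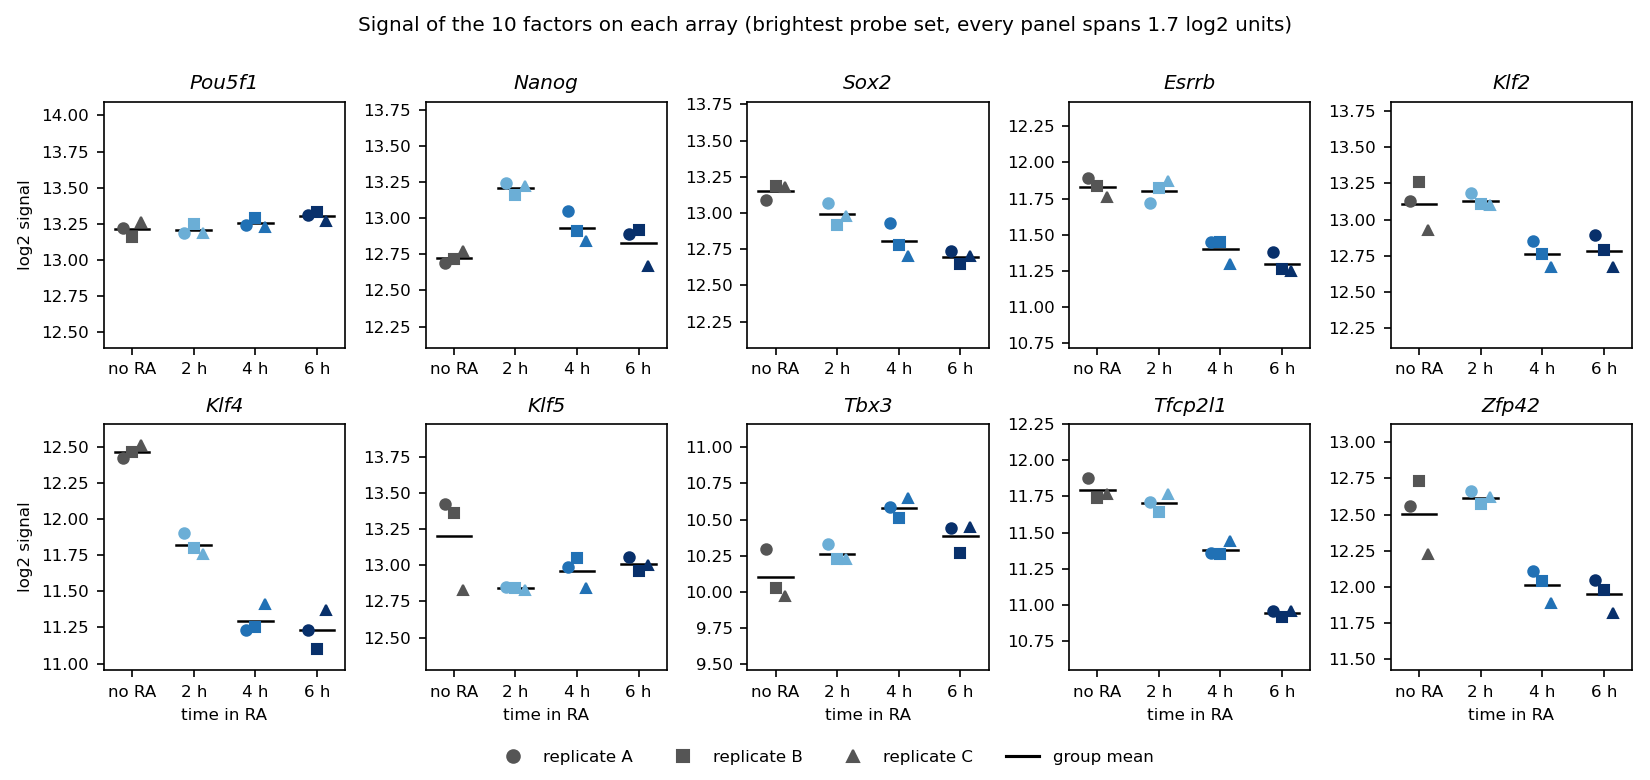
Log2 signal of the brightest probe set of each of the 10 genes (vertical axis) on each array, by hours of RA (horizontal axis, starting with no RA). Circles, squares and triangles are replicates A, B and C and the line is the group mean; the panels have different ranges of equal span. Klf4, Tfcp2l1, Esrrb, Sox2 and Zfp42 step down, Nanog is highest at 2 h (13.16 to 13.24), and Pou5f1 stays between 13.16 and 13.33.

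Of the 3 core factors, only Sox2 was lower at the later times. Pou5f1 read 13.22, 13.16 and 13.26 on untreated arrays A, B and C, 13.19, 13.25 and 13.19 at 2 h, 13.24, 13.29 and 13.23 at 4 h, and 13.31, 13.33 and 13.27 at 6 h. The groups overlapped at 2 and 4 h, and the 6 h arrays all lay slightly above the untreated ones. The differences were -0.0052, 0.04 and 0.09 at 2, 4 and 6 h (SE 0.057), with adjusted p-values of 0.975, 0.715 and 0.308. The 95% interval at 6 h, -0.04 to 0.21, leaves out a fall of the size seen in Sox2. Pou5f1 was called in none of the 6 comparisons and had 1 probe set. The smallest adjusted p among them was 0.257, for 6 h against 2 h.

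Sox2 fell over 4 and 6 h, with no single 2 h step that passed the test. It read 13.09, 13.19 and 13.18 on the untreated arrays, 13.07, 12.92 and 12.98 at 2 h, 12.93, 12.78 and 12.70 at 4 h, and 12.74, 12.65 and 12.70 at 6 h. Every RA array was below every untreated array, at all 3 times, which was so in either direction for 20.6%, 34% and 35.9% of all probe sets at 2, 4 and 6 h. The difference at 2 h was -0.17 ± 0.074 SE and did not pass the test (adjusted p = 0.295). Sox2 then fell by 0.35 at 4 h (adjusted p = 0.00469) and by 0.45 at 6 h (adjusted p = 0.000795), a 1.37-fold lower signal. From 2 to 6 h it fell by 0.29 (adjusted p = 0.0123). Without RA 2 h replicate A that last call was lost, with a difference of -0.25 (adjusted p = 0.0565).

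Nanog rose at 2 h and then fell, both by test. It read 12.69, 12.72 and 12.77 on the untreated arrays, 13.24, 13.16 and 13.22 at 2 h, 13.05, 12.91 and 12.84 at 4 h, and 12.89, 12.92 and 12.67 at 6 h. The 2 h arrays stood above all others, the 4 h arrays still above the untreated ones, and the 6 h arrays overlapped with these. At 2 h Nanog rose by 0.48 ± 0.080 SE (adjusted p = 0.00826), a 1.399-fold higher signal. This call held when any single array was left out, with adjusted p-values up to 0.0478. At 4 and 6 h the differences from no RA were 0.21 (adjusted p = 0.0831) and 0.10 (adjusted p = 0.42).

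The return of Nanog was tested against its own 2 h level. From 2 to 6 h it fell by 0.38 (adjusted p = 0.00391), and from 2 to 4 h by 0.27 (adjusted p = 0.031). The call from 2 to 4 h did not survive the removal of any one 2 h array (-0.26, -0.30 and -0.27 without A, B and C) or of RA 4 h replicate B or C (-0.26 and -0.23), with adjusted p-values of 0.0594 to 0.110. The difference at 4 h from no RA was called higher without RA 6 h replicate C (0.21, adjusted p = 0.0495). The feeder marker means of the 2 h arrays were 8.66 to 8.84, and those of the untreated arrays ran from 8.22 (C) to 8.89 (B). The part of feeder cells in the Nanog values was not tested.

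Esrrb and Tfcp2l1, factors that hold ES cells in the naive state, both fell at 4 and 6 h but with different steps. Esrrb read 11.89, 11.84 and 11.76 on the untreated arrays, 11.72, 11.82 and 11.87 at 2 h, 11.45, 11.45 and 11.30 at 4 h, and 11.38, 11.26 and 11.25 at 6 h. Untreated and 2 h arrays overlapped, and the 4 and 6 h arrays lay below both. The difference was -0.03 at 2 h (adjusted p = 0.876, 95% interval -0.19 to 0.13), after which Esrrb fell by 0.43 ± 0.072 SE at 4 h (adjusted p = 0.00125) and by 0.53 at 6 h (adjusted p = 0.000238). Between 2 and 4 h it fell by 0.40 (adjusted p = 0.00259), and between 4 and 6 h the difference was -0.11 (adjusted p = 0.618).

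Tfcp2l1 read 11.88, 11.74 and 11.77 on the untreated arrays, 11.71, 11.64 and 11.77 at 2 h, 11.36, 11.35 and 11.44 at 4 h, and 10.96, 10.92 and 10.96 at 6 h. Its 2 h arrays overlapped with the untreated ones, and each later group lay wholly below the one before it. At 2 h the difference was -0.09 ± 0.065 SE (adjusted p = 0.512). Tfcp2l1 then fell by 0.42 at 4 h (adjusted p = 0.000723) and by 0.85 at 6 h (adjusted p = 4.08e-06). It was the only one of the 10 genes called between 4 and 6 h, with a fall of 0.44 (adjusted p = 0.0277), where 0.308% of all genes were called. The share of all probe sets called in that comparison, 0.249%, ranged from 0.0229% (without RA 4 h replicate A or RA 6 h replicate B) to 1.98% (without no RA replicate C) when 1 array was left out. The signal fell by 0.32 from 2 to 4 h (adjusted p = 0.00443) and by 0.76 from 2 to 6 h (adjusted p = 1.44e-05).

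The Tfcp2l1 difference between 4 and 6 h kept its size in every leave-one-out fit, -0.45 to -0.41, but lost its call in 8 of the 12. These were the fits without RA 2 h replicate A or B and without any one of the 4 h or 6 h replicates, with differences of -0.44, -0.44, -0.45, -0.45, -0.41, -0.44, -0.42 and -0.44 and adjusted p-values of 0.0503 to 0.124. The unadjusted p of the main fit was 1.99e-05.

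The 3 Krüppel-like factors, zinc-finger proteins that can stand in for one another in ES cells, did not move alike. Klf4, a target of LIF and STAT3 signalling, fell first and furthest. It read 12.42, 12.46 and 12.51 on the untreated arrays, 11.90, 11.80 and 11.76 at 2 h, 11.23, 11.25 and 11.41 at 4 h, and 11.23, 11.10 and 11.37 at 6 h. All RA arrays lay below all untreated arrays, the 4 and 6 h arrays lay below the 2 h arrays, and 4 and 6 h overlapped. Klf4 fell by 0.64 ± 0.081 SE at 2 h (adjusted p = 0.00126), by 1.16 at 4 h (adjusted p = 3.1e-06) and by 1.23 at 6 h (adjusted p = 1.52e-06). The step from 2 to 4 h was -0.52 (adjusted p = 0.0011) and that from 4 to 6 h -0.07 (adjusted p = 0.81). Every one of these calls of Klf4 held when any single array was left out.

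Klf2 read 13.13, 13.26 and 12.93 on the untreated arrays, 13.18, 13.11 and 13.10 at 2 h, 12.85, 12.76 and 12.67 at 4 h, and 12.89, 12.79 and 12.67 at 6 h. The 2 h arrays lay among the untreated ones, and the 4 and 6 h arrays below both groups, close to the lowest untreated array, C. The difference was 0.02 ± 0.091 SE at 2 h (adjusted p = 0.939). Klf2 fell by 0.34 at 4 h (adjusted p = 0.017) and by 0.32 at 6 h (adjusted p = 0.0204), and from 2 h by 0.36 at 4 h (adjusted p = 0.0149) and by 0.34 at 6 h (adjusted p = 0.0147).

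These Klf2 calls rest on few arrays. The call at 4 h was lost without no RA replicate B (-0.27, adjusted p = 0.0658) or RA 4 h replicate C (-0.30, adjusted p = 0.0664). The call at 6 h was lost without no RA replicate A (-0.31), no RA replicate B (-0.25), RA 6 h replicate B (-0.33) or RA 6 h replicate C (-0.27). Against 2 h, neither call passed without RA 2 h replicate A (-0.34 at 4 h and -0.32 at 6 h), without RA 4 h replicate C (-0.32 at 4 h) and without RA 6 h replicate C (-0.29 at 6 h).

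Klf5 was not called at any time, and 1 array decides that. It read 13.42, 13.36 and 12.83 on the untreated arrays, 12.85, 12.84 and 12.83 at 2 h, 12.99, 13.05 and 12.84 at 4 h, and 13.06, 12.96 and 13.00 at 6 h. Untreated A and B stood above all 9 RA arrays, while untreated C was level with the lowest of them. The differences were -0.36 ± 0.13 SE, -0.24 and -0.20 at 2, 4 and 6 h, with adjusted p-values of 0.182, 0.21 and 0.302. At 2 h the 95% interval, -0.63 to -0.09, excluded 0 before adjustment. Without no RA replicate C, Klf5 was called lower at all 3 times, by 0.54 (adjusted p = 0.00173), 0.43 (adjusted p = 0.00129) and 0.38 (adjusted p = 0.00204).

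Untreated C was 0.56 below the mean of untreated A and B in Klf5, 0.42 below in Zfp42, 0.27 below in Klf2, 0.19 below in Tbx3 and 0.10 below in Esrrb, and within 0.08 of it in the other 5 genes. It was also the array with the lowest mean of feeder markers (8.22), of primitive endoderm markers (7.67, the others 7.92 to 8.10) and of trophoblast markers (7.13, the others 7.15 to 7.36). Untreated B, the array with the highest feeder mean of the 12, had the highest Klf2 and Zfp42 signals. Klf5 was highest on untreated A instead. On the 2 h arrays, whose feeder means were 8.66 to 8.84, Klf5 read 12.83 to 12.85, level with untreated C. Krüppel-like factors are expressed in fibroblasts too, and the share of these signals that came from feeders was not tested.

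**Figure D2:**
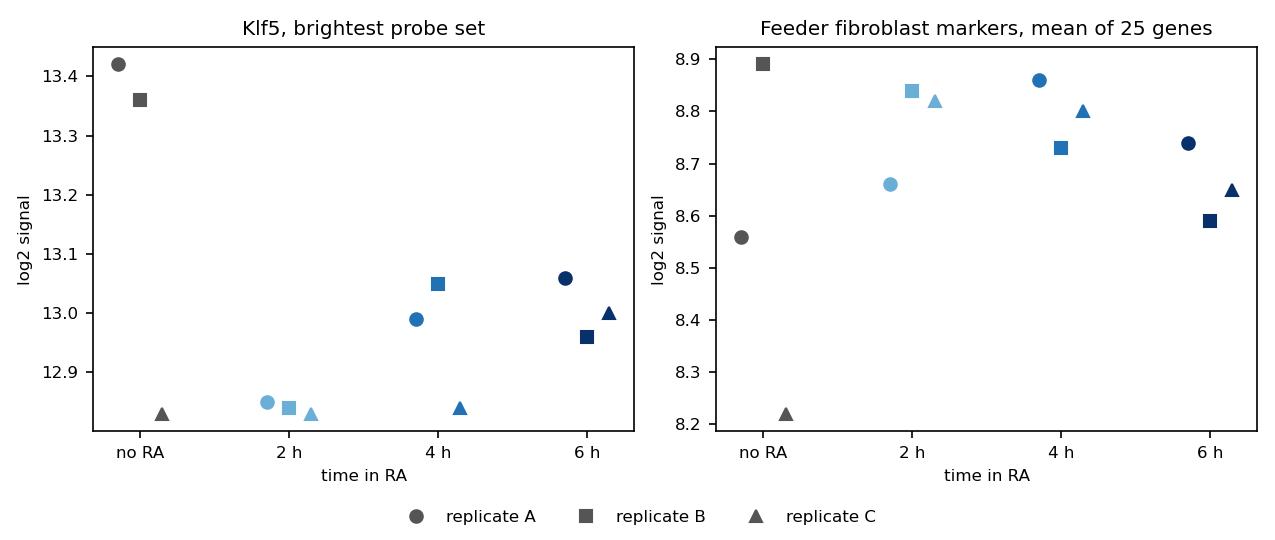
Log2 signal (vertical axes) of Klf5 on its brightest probe set (left) and mean log2 signal of 25 feeder fibroblast markers (right) on each array, by hours of RA. Circles, squares and triangles are replicates A, B and C. Untreated C lies below untreated A and B in both (12.83 against 13.42 and 13.36 for Klf5, 8.22 against 8.56 and 8.89 for the markers).

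Tbx3, a T-box factor of the naive network that is also used later in endoderm and heart, was the one gene higher than untreated at 4 and 6 h. It read 10.30, 10.03 and 9.97 on the untreated arrays, 10.33, 10.23 and 10.23 at 2 h, 10.59, 10.51 and 10.65 at 4 h, and 10.44, 10.27 and 10.45 at 6 h. The 4 h arrays were above all others, whereas those at 2 and 6 h overlapped with untreated A. The difference was 0.17 ± 0.090 SE at 2 h (adjusted p = 0.396), and Tbx3 rose by 0.49 at 4 h (adjusted p = 0.00222) and by 0.29 at 6 h (adjusted p = 0.0348). From 2 to 4 h it rose by 0.32 (adjusted p = 0.0263), and from 4 to 6 h the difference was -0.20 (adjusted p = 0.423).

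The rise of Tbx3 at 6 h was not called without no RA replicate B (0.25), no RA replicate C (0.22), RA 6 h replicate A (0.26) or RA 6 h replicate C (0.25), with adjusted p-values of 0.0955 to 0.112. That from 2 to 4 h was not called without RA 2 h replicate B or C (0.30 each) or RA 4 h replicate A or C (0.32 and 0.29). It was also seen on 1 of the 5 Tbx3 probe sets only, as described with the other probe sets.

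Zfp42, a zinc-finger gene used as a marker of the naive state and a target of the core factors, fell between 2 and 4 h. It read 12.56, 12.73 and 12.23 on the untreated arrays, 12.66, 12.57 and 12.62 at 2 h, 12.11, 12.04 and 11.89 at 4 h, and 12.05, 11.98 and 11.82 at 6 h. The 2 h arrays lay within the untreated range, and the 4 and 6 h arrays lay below every untreated and 2 h array. After a difference of 0.11 ± 0.11 SE at 2 h (adjusted p = 0.672), Zfp42 fell by 0.50 at 4 h (adjusted p = 0.00773) and by 0.56 at 6 h (adjusted p = 0.00336). Measured from 2 h, it fell by 0.61 at 4 h (adjusted p = 0.00302) and by 0.67 at 6 h (adjusted p = 0.0011), 1.588-fold.

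**Figure D3:**
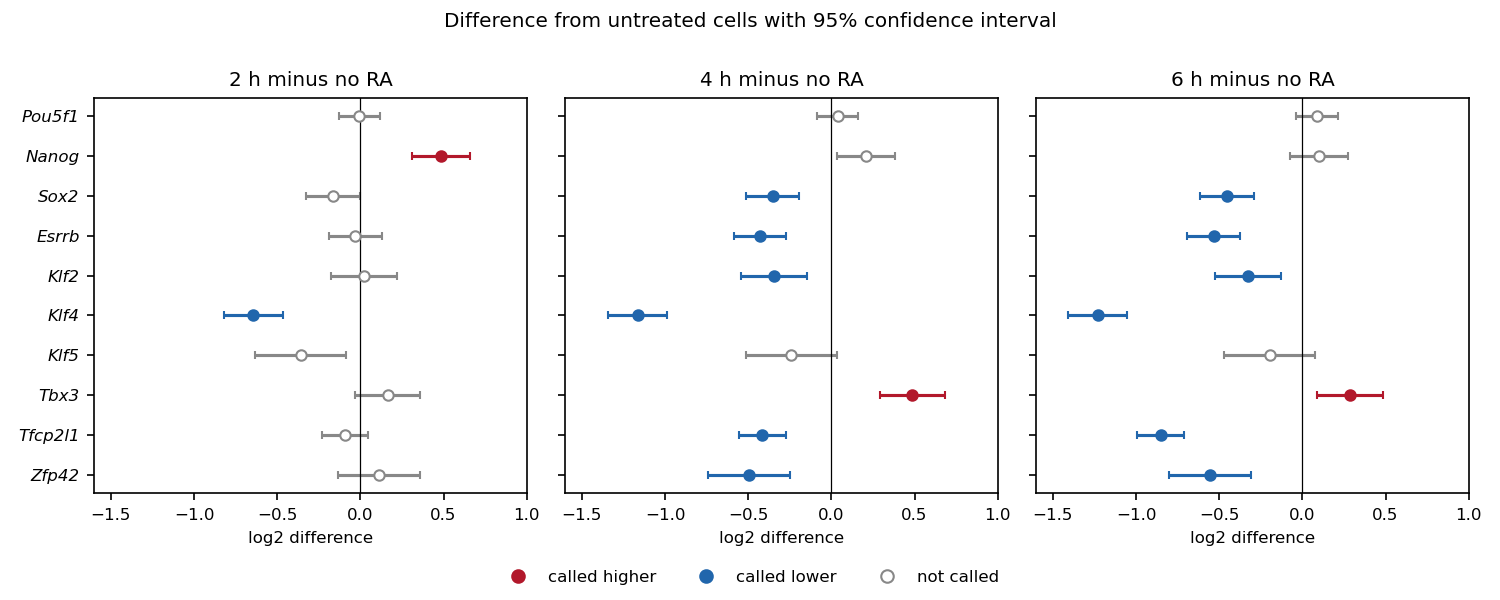
Log2 difference from no RA (horizontal axis) of the brightest probe set of each gene (vertical axis) at 2, 4 and 6 h, with 95% intervals of the limma fit. Filled points are called higher (red) or lower (blue) at an adjusted p under 0.05, and open points are not called. Klf4 is called at all 3 times (-0.64, -1.16 and -1.23), Nanog at 2 h only (0.48), and the other called genes at 4 and 6 h.

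The time steps show when the genes moved. Between 2 and 4 h, 7 of the 10 were called: Tbx3 higher and Nanog, Esrrb, Klf2, Klf4, Tfcp2l1 and Zfp42 lower, against 22.2% of all genes (11.6% higher, 10.6% lower). With 1 array left out, 12.9% to 25.8% of all probe sets were called in that step. Between 4 and 6 h only Tfcp2l1 was called, where 0.154% of all genes were higher and 0.154% lower. From 2 to 6 h, Nanog, Sox2, Esrrb, Klf2, Klf4, Tfcp2l1 and Zfp42 were lower and none higher, 7 of 10 against 29.8% of all genes (16% higher, 13.8% lower). The arrays of the groups compared did not overlap for 12, 4 and 12 of the 21 member probe sets in these steps, against 41.3%, 21.3% and 46.9% of all probe sets. On the brightest probe sets this held for 7, 2 and 9 of the 10 genes, and no such share was computed over all genes. The medians of the 10 genes for these steps were -0.30, -0.08 and -0.36, beside -0.02, -0.0046 and -0.04 for all genes. The changes from no RA at 4 h therefore differed by test from those at 2 h in the 7 genes called between 2 and 4 h. In Sox2 the difference between 2 and 4 h, -0.19, did not pass with all 12 arrays (adjusted p = 0.101). Under the alternative settings, 3 Sox2 differences not called in the main fit were called, among them this step with 1 array left out.

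Counted by probe set, 1 of 21 was called higher and 2 lower at 2 h, against 2.02% of all probe sets, 1.11% higher and 0.91% lower. At 4 h the count was 1 higher and 9 lower, against 22.4% (11% higher, 11.5% lower). At 6 h it was again 1 higher and 9 lower, against 24.8% (12.8% higher, 12% lower). From 2 to 4 h, 1 was higher and 10 lower, against 19.4% (10.5% higher, 8.91% lower), and from 4 to 6 h, 0 were higher and 1 lower, against 0.249% (0.14% higher, 0.109% lower). From 2 to 6 h, 0 were higher and 10 lower, against 26.5% (14.7% higher, 11.8% lower). Over the 4 groups the F test called 11 of 21 probe sets, against 30.2%. Of the 21, 6 were under the array median on all 12 arrays: 1 of Klf5, 3 of Tbx3 and 2 of Tfcp2l1. A probe set at that level says little about its gene.

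For genes with several probe sets above the median, the readings of Esrrb and Klf4 moved together. The second Klf4 probe set read 12.41 to 12.50 untreated and 11.42 to 11.59, 10.90 to 11.08 and 10.88 to 11.02 at 2, 4 and 6 h. Its differences were -0.93, -1.46 and -1.52, each called and each larger than on the brightest one. The other 2 Esrrb probe sets fell by 0.35 and 0.38 at 4 h and by 0.44 and 0.69 at 6 h, all called, with differences of 0.08 and 0.04 at 2 h that were not.

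Klf5 and Tbx3 were not so uniform. A second Klf5 probe set read 9.41, 9.26 and 8.25 on untreated A, B and C and 8.40 to 9.04 on the RA arrays, so that untreated C was again the lowest of its group; it was not called at any time. The second Tbx3 probe set above the median read 9.66 to 10.07 untreated and 9.80 to 9.87 at 4 h, where the brightest one rose, and none of the other 4 Tbx3 probe sets was called in any comparison. For Tfcp2l1 both further probe sets were under the median, and one of them was called once, lower from 2 to 4 h by 0.24.

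**Figure D4:**
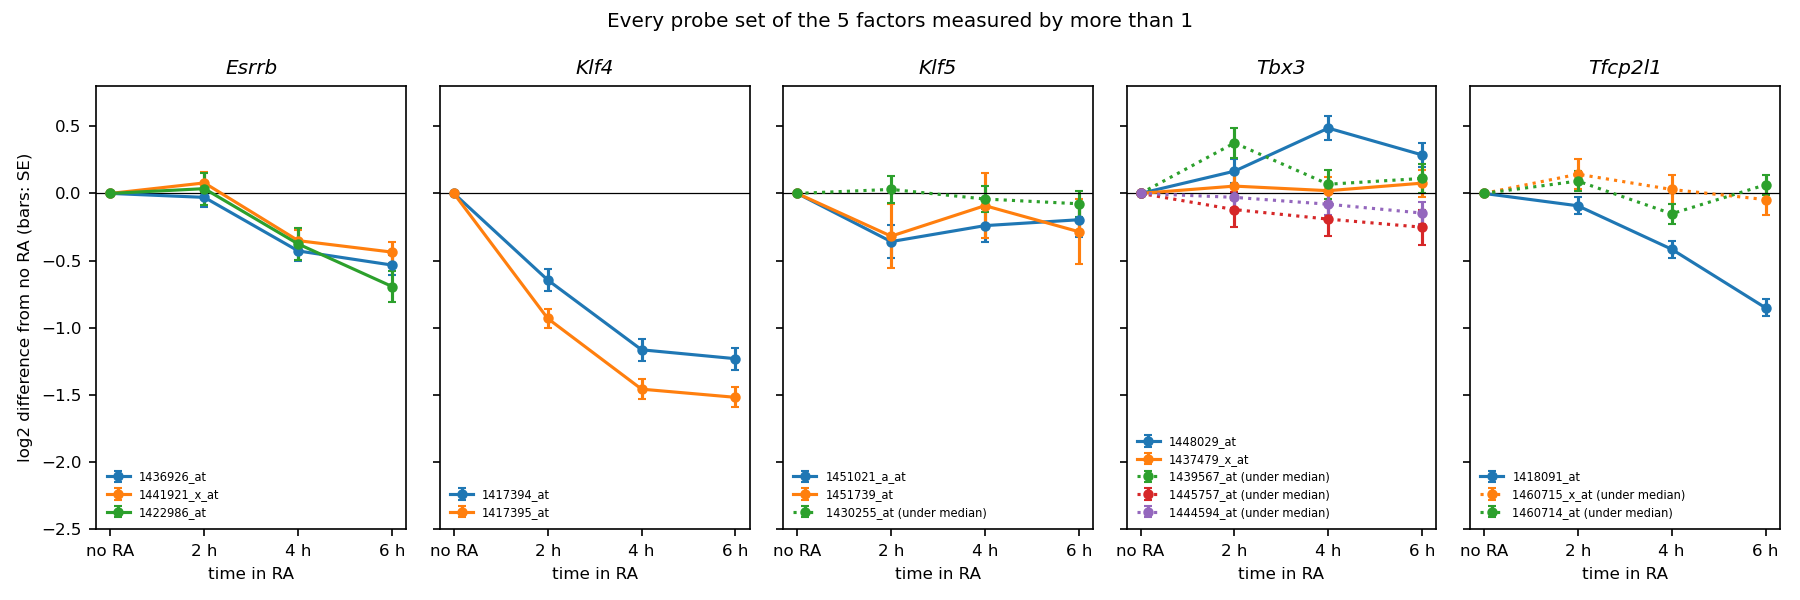
Log2 difference from no RA (vertical axis, bars show the SE of the fit) by hours of RA (horizontal axis) for every probe set of the 5 genes measured by more than 1. Dotted lines are probe sets under the array median on all 12 arrays. Both Klf4 and all 3 Esrrb probe sets end below 0 at 6 h, while 1 of 5 Tbx3 probe sets reaches 0.49 at 4 h.

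Likeness between patterns was measured as the root mean square difference between 2 genes' log2 values over the 12 arrays, each gene centred on its own mean. Among the 10 genes, Esrrb and Klf2 were most alike (0.11), followed by Sox2 with Klf2 and Sox2 with Esrrb (0.12 each). For the 4 genes whose group means spanned at least 0.5, the 3 nearest other genes were sought among all genes. Those of Esrrb were Epcam (0.05), an adhesion protein of ES cells, Fbxo7 (0.06) and Brd1 (0.06). Those of Zfp42 were Spdl1 (0.05), Tfe3 (0.07) and Tollip (0.07).

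The nearest genes to Tfcp2l1 were Fstl1, Chaf1b and Smarcd3 (0.08 to 0.09), and to Klf4 Fgf13, Auts2 and Rap1gds1 (0.16 each). These are descriptions of 12 arrays that share their groups. Without no RA replicate C, 1, 1, 2 and 0 of the 3 nearest genes of Esrrb, Zfp42, Tfcp2l1 and Klf4 stayed among the 3.

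The genes around these factors were counted from lists of the network. Some genes stand in several lists, such as Fbxo15, Tdgf1, Pou3f1 and Klf6, so the counts of the lists are not independent. Of 15 measured other naive-state genes, 2 were called higher and 7 lower at 6 h, with a median of -0.28, against 13.9% higher and 13.7% lower of all genes. Nr5a2, a nuclear receptor that can act on Pou5f1, fell by 0.72 (adjusted p = 0.0153), and Jam2, a junction protein, fell by 1.01 (adjusted p = 2.67e-06). Of their probe sets, 3 of 4 for Nr5a2 and 4 of 5 for Jam2 were called lower. In the same list Prdm14, which keeps DNA methylation low in naive cells, rose by 1.34 (adjusted p = 0.0111), and Tet2, which oxidizes methylated cytosine, by 0.76 (adjusted p = 0.000101). The call of Nr5a2 was lost without no RA replicate A (-0.59), no RA replicate B (-0.55) or RA 6 h replicate C (-0.63).

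Of 17 partners and cofactors of the core factors, 5 were higher and 1 lower at 6 h, against 13.9% higher and 13.7% lower of all genes. Dppa2, a chromatin protein of ES cells, rose by 1.77 (adjusted p = 8.6e-07) and the remodeller Chd7 by 1.00 (adjusted p = 9.38e-05), while Wdr5, a subunit of histone methyltransferase complexes, fell by 0.42 (adjusted p = 0.000239) on 1 of its 2 probe sets. Without no RA replicate C, 6 were higher and 5 lower. Among 7 targets of the paired Oct4 and Sox2 element, 3 were lower and 1 higher at 6 h, beside the same 13.7% and 13.9% of all genes, or 3 and 2 without no RA replicate C. Fgf4, the growth factor whose enhancer holds that element, fell by 1.31 at 4 h (adjusted p = 8.36e-06) and by 1.33 at 6 h (adjusted p = 5.3e-06), after -0.03 at 2 h. Fbxo15 fell by 0.42 at 6 h (adjusted p = 0.0331), and Lefty1, a Nodal inhibitor, rose by 0.88 (adjusted p = 0.00491). The Fbxo15 call was lost without any one of no RA replicates A and B and RA 6 h replicates A and C (-0.46 to -0.31).

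Among the 17 inputs of the network, 2 were higher and 6 lower at 6 h (against 13.9% higher and 13.7% lower of all genes), and 1 was higher without no RA replicate A or B. Lifr, the LIF receptor subunit upstream of Klf4 and Tfcp2l1, fell by 1.00 at 4 h (adjusted p = 5.4e-05) and by 1.18 at 6 h (adjusted p = 1.31e-05), and its difference at 2 h, -0.27, did not pass (adjusted p = 0.225). Of the 3 Lifr probe sets, 2 were called lower at 6 h. Id2, a target of BMP signalling, fell by 1.45 (adjusted p = 0.000403) at 6 h. Id1 and Id3 of the same list, named after their values were seen, were not called at 2, 4 or 6 h. Their differences from no RA were 0.73, 0.81 and 0.46 for Id1 and 1.13, 0.78 and 0.06 for Id3. Tcf7l1, the Wnt-pathway repressor of Esrrb, Klf2 and Nanog, rose by 0.55 at 2 h (adjusted p = 0.0185) and by 0.52 at 6 h (adjusted p = 0.00334). Smad1, a transducer of BMP signals with 2 of its 3 probe sets called higher, rose by 0.50 at 6 h (adjusted p = 0.026). That call was lost without no RA replicate A (0.37), no RA replicate B (0.39) or RA 6 h replicate A (0.49), B (0.51) or C (0.50).

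Family relatives of the 10 factors numbered 24, with 4 higher and 6 lower at 6 h, against 13.9% higher and 13.7% lower of all genes. Among them Klf6 fell by 1.05 (adjusted p = 0.00552) and Klf11 by 0.99 (adjusted p = 4.86e-06), and Sox15, a SOX relative expressed in ES cells, rose by 0.59 (adjusted p = 0.0106). Tbx4 rose by 0.64 (adjusted p = 0.019) from a signal under the array median, on 1 of its 2 probe sets (the other -0.05). Without no RA replicate C, 10 relatives were lower, and without no RA replicate B, 2 were higher. Sox15 was not called without RA 6 h replicate A (0.50), nor Tbx4 without no RA replicate A (0.58), no RA replicate B (0.62) or RA 6 h replicate A or C (0.49 and 0.61).

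Of 14 genes of the primed or formative state, which follows the naive one in the embryo, 3 were higher and 4 lower at 6 h, against 13.9% higher and 13.7% lower of all genes. The DNA methyltransferase gene Dnmt3a rose by 1.60 (adjusted p = 4.75e-07), although of its 5 probe sets 3 were higher and 1 lower, and Pou3f1 by 0.52 (adjusted p = 0.00489). Otx2, a homeobox gene of the primed state, fell by 1.06 at 2 h (adjusted p = 0.00875) and by 1.23 at 6 h (adjusted p = 0.000343), and Fgf15 fell by 1.22 at 6 h (adjusted p = 8.1e-06). Of 20 immediate early genes, which answer growth factors and handling, 1 was higher and 9 lower at 6 h (against 13.9% higher and 13.7% lower of all genes), while 2 were higher without no RA replicate B, and 2 higher and 13 lower without no RA replicate C. Atf3 rose by 0.79 (adjusted p = 0.000503), Ccn1 fell by 1.38 (adjusted p = 0.00238) and Egr2 by 1.35 (adjusted p = 0.000173).

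**Figure D5:**
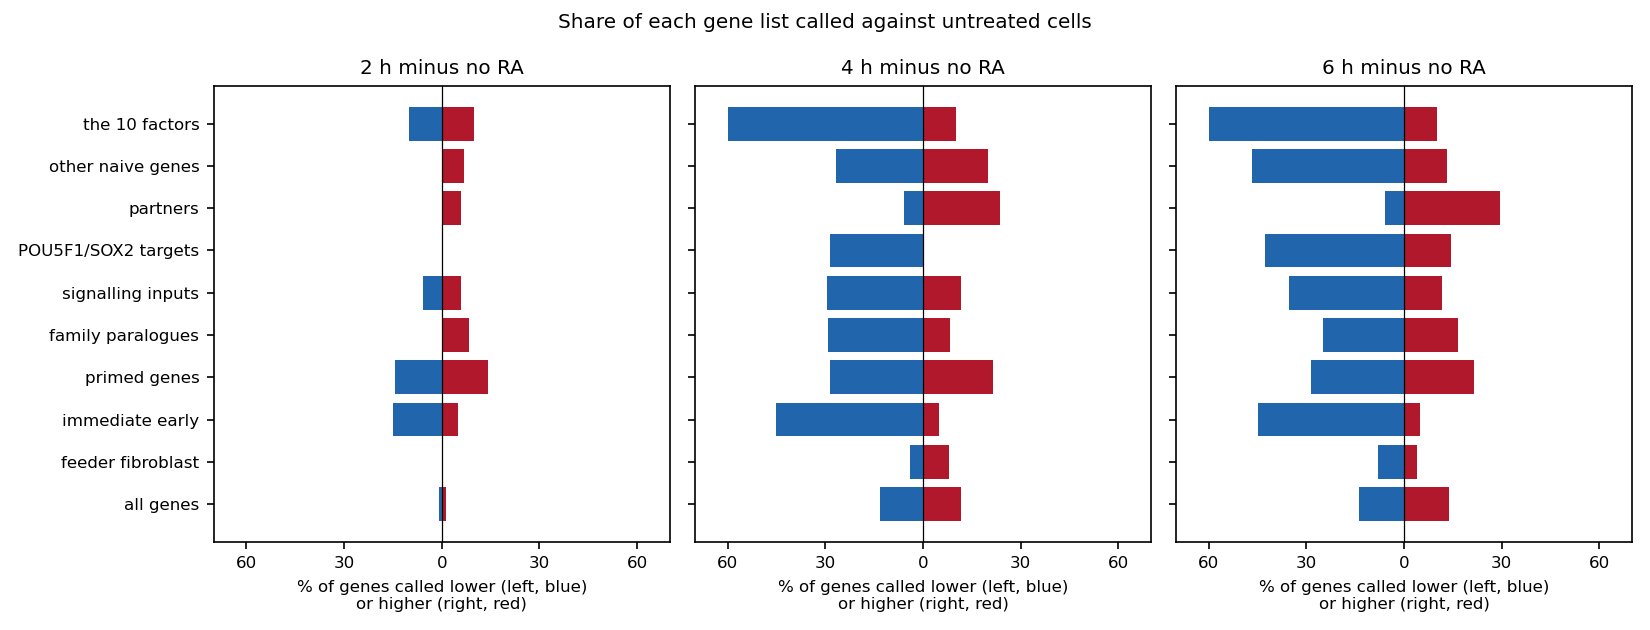
Percent of the measured genes of each list called lower (blue, to the left) and higher (red, to the right) than no RA at 2, 4 and 6 h, with all 18193 genes in the last line. Of the 10 factors, 1 was higher and 1 lower at 2 h, and 1 was higher and 6 lower at 4 and 6 h.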

How the data were processed

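RNA of KH2 mouse ES cells was measured on 12 arrays, placed in 4 groups of 3 by their labelled RA exposure. The authors deposited log2 signals for 45101 probe sets, as the values show. Their processing notes in the labels name limma 3.4.3. The normalization method is not given in the sources used here, and none was added.

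By the platform's annotation, 34945 probe sets had 1 gene, 932 several and 9160 none, and 64 were controls. A model of group means (limma 3.58.1, R 4.3.3; lmFit, eBayes, 8 residual and 4.03 prior degrees of freedom) was fitted to all 12 arrays, and p-values were adjusted by Benjamini-Hochberg over the 34945. A gene's brightest probe set stood for it. The fit was tested on simulated data. The 10 genes, the 12 other lists and the tests were chosen with earlier results of these data known.

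Named genes are the 10 members, from each list the called genes with the 2 largest rises and falls at 6 h, and the 3 genes most like each member that spanned at least 0.5. Alternatives were quantile normalization, centring on the median, averaging a gene's probe sets, a dim filter, probe sets without a suffix, a trended and robust variance, array weights, only the 6 arrays compared, a stricter threshold, a replicate block and leaving out each array. Deviations from the group means of same-letter arrays had correlations of -0.176 to 0.279 (median 0.019, 4 of 18 over 0.1). Those of unlike letters had -0.256 to 0.211 (median -0.0022, 7 of 36 over 0.1). The largest value, 0.279, was between 4 h replicate C and 6 h replicate C. Whether letters paired samples was therefore not settled, and the main fit paired none. Figures were drawn with matplotlib 3.10.9.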

Additional observations from a re-analysis of the deposited data

Results flagged for a closer look

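The change from no RA differed between RA times, by the test of the difference itself, in 8 of the 10 genes in at least 1 comparison. Of all genes, 22.2% were called at 4 h against 2 h, 0.308% at 6 h against 4 h and 29.8% at 6 h against 2 h. No share of all genes was computed over these comparisons together. Calls lost when 1 array was left out are given with each gene above. At 4 h the change was lower than at 2 h by the following log2 differences: Nanog -0.27, Esrrb -0.40, Klf2 -0.36, Klf4 -0.52, Tfcp2l1 -0.32 and Zfp42 -0.61. In Tbx3 it was higher at 4 h than at 2 h, by 0.32. From 4 to 6 h the change differed in Tfcp2l1, by -0.44. At 6 h it was lower than at 2 h in Nanog (-0.38), Sox2 (-0.29), Esrrb (-0.50), Klf2 (-0.34), Klf4 (-0.59), Tfcp2l1 (-0.76) and Zfp42 (-0.67). No group had the 4 arrays needed to look for a single array far from the others.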

How the results depend on the processing

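Over the settings tried, every call of Klf4, Esrrb and Zfp42 was kept, and no called difference of the 10 genes changed sign except that of Tbx3 from 2 to 4 h, which was -0.0287 when a gene's probe sets were averaged. With that average, 0 of the 10 genes were called higher at 4 h, at 6 h or from 2 to 4 h, and 0 lower from 4 to 6 h. Tbx3 was then 0.06 at 4 h and 0.02 at 6 h. A dim filter, and a trended and robust variance, each gave 2 genes and 2 probe sets higher at 4 h, with Nanog added. With array weights 2 genes were lower at 2 h, with Klf5 added (-0.49, adjusted p = 0.00909), and 0 genes or probe sets were higher at 6 h. With only the 6 arrays compared 0 were higher at 6 h, and Klf2 was not called at 4 or 6 h. At an adjusted p under 0.01, 0 genes or probe sets were higher at 6 h or from 2 to 4 h, 6 probe sets were lower from 2 to 4 h and 0 from 4 to 6 h. Without suffixed probe sets the brightest Klf5 probe set drops out, so no count of genes was made.

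Leaving out each array in turn gave, as genes and probe sets called, 1 to 2 and 2 to 4 lower at 2 h, 1 to 2 and 1 to 2 higher at 4 h, 5 to 7 and 7 to 11 lower at 4 h, 0 to 1 and 0 to 1 higher at 6 h, and 5 to 7 and 8 to 12 lower at 6 h. From 2 to 4 h the counts were 0 to 1 and 0 to 1 higher and 4 to 7 and 6 to 11 lower, from 4 to 6 h 0 to 1 and 0 to 1 lower, and from 2 to 6 h 5 to 7 and 8 to 11 lower. Arrays behind the lost calls of brightest probe sets are named with each gene, while those behind some gained calls are not. The causes were not tested. With the replicate letter as a block, 6 genes were lower at 4 h and 6 at 6 h, and no call of the 10 genes was lost.

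The other reversed differences were not called and lay near 0. With the mean of probe sets they were Esrrb 0.0281 and Tfcp2l1 0.0476 at 2 h, Klf5 -0.0618 from 4 to 6 h and Tbx3 -0.0740 from 2 to 6 h. With array weights they were Pou5f1 0.0057 and Klf2 -0.0302 at 2 h. Leaving out each array in turn, the 2 h differences ranged from -0.0308 to 0.0160 in Pou5f1 (above 0 without no RA replicate C, 0.0160, RA 2 h replicate A, 0.0052, or C, 0.0027), from -0.0639 to 0.0122 in Esrrb (above 0 without RA 2 h replicate A), from -0.0688 to 0.0951 in Klf2 (below 0 without no RA replicate C, -0.0688, or RA 2 h replicate A, -0.0061) and from -0.0289 to 0.221 in Zfp42 (below 0 without no RA replicate C). Those from 4 to 6 h ranged from -0.0353 to 0.0770 in Klf2 (below 0 without RA 4 h replicate C, -0.0246, or RA 6 h replicate A), from -0.0153 to 0.0888 in Klf5 (below 0 without RA 4 h replicate C) and from -0.121 to 0.0017 in Zfp42 (above 0 without RA 6 h replicate C). The number of arrays, 3 per group, limits the precision of all values.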

Other observations

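Hoxb1, an RA-induced gene of the hindbrain, rose by 5.69 at 6 h (adjusted p = 4.34e-09) from an untreated signal under the array median. Among 11 primitive endoderm markers, Gata6 rose by 0.81 (adjusted p = 0.000183) at 6 h, with 2 of its 3 probe sets called higher, over a range of -0.13 to 0.81. Pdgfra rose by 0.39 (2 of its 3 probe sets were called) and Dab2 fell by 0.43 (2 of its 4 probe sets were called, over a range of -0.43 to 0.21). The Pdgfra call was lost without no RA replicate A or C or any one of the 3 RA 6 h replicates and with array weights, where Pdgfra differed by 0.36 to 0.42. Among 11 trophoblast markers, Eomes rose by 0.78 (adjusted p = 8.35e-05) at 6 h. Among the 25 feeder markers, Mmp2 fell by 0.71 (adjusted p = 0.000138) at 6 h. Fn1 (-0.25, on 1 of its 2 probe sets, the other 0.02) and Twist1 (0.33) were called with all 12 arrays, but Fn1 was not called without no RA replicate B (-0.22) or RA 6 h replicate B (-0.24) or C (-0.22), nor Twist1 without no RA replicate C (0.24) or RA 6 h replicate B (0.25).

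Nr0b1, a nuclear receptor of the naive state and a partner of Oct4, was named after its values were seen. It rose by 0.83 at 2 h (adjusted p = 0.035) and by 0.60 at 4 h (adjusted p = 0.0292), and at 6 h its difference from no RA was -0.09 (adjusted p = 0.767). It was the only one of the 15 other naive-state genes called at 2 h, where 2.22% of all genes were called, 1.34% higher. Nr0b1 was read on its brightest probe set only, and whether its calls hold with single arrays left out was not examined.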
